A study of Mus musculus with 17 samples.

Results

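The 34 genes described here carry glucose into the cell and break it down to pyruvate and lactate. They were chosen by gene symbol, all 34 were found among the 20621 genes of the count table, and all 34 were among the 15365 genes that passed the filter on low counts. The list holds the glucose transporters, the hexokinases, the enzymes of the upper and lower part of glycolysis, lactate dehydrogenases and the carriers that export lactate, pyruvate dehydrogenase subunits and the kinases that switch that enzyme off, the regulators that make and break fructose 2,6-bisphosphate, and 3 genes of side branches.

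Glycolysis splits one glucose into a pair of pyruvate molecules through a chain of enzymes, most of which exist as isozymes encoded by separate genes. Pyruvate is then reduced to lactate, which leaves the cell, or oxidised by pyruvate dehydrogenase in mitochondria. Mouse embryonic stem cells run glycolysis at a high rate, and the balance between lactate production and mitochondrial oxidation is known to differ between culture conditions.

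The libraries were made from total RNA of E14 mouse embryonic stem cells, a line derived from mouse blastocysts. One genotype was WT and the other, RNAPII-mut, is labelled slow/slow and carries a slowly elongating RNA polymerase II (called the mutant below). All groups grew without feeder cells on gelatine with 10% serum and 1000 U/mL LIF, the cytokine that maintains self-renewal. The day 0 groups had this medium alone, and the others had in addition 2i, that is 1 µM PD0325901, which inhibits the kinase MEK, and 3 µM CHIR99021, which inhibits the kinase GSK3, for 1, 2 or 7 days. Each of the 8 combinations of genotype and day had 2 libraries, apart from the mutant at day 1 with 3, giving 17 libraries. The labels do not say whether replicates were separate cultures, so p-values measure only the spread between these libraries, and do not say how many clones the mutant line comes from, so the mutation and the cell line cannot be told apart.

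Library totals ran from 47350441 to 56138844 counts. Levels are CPM values, that is counts scaled to a common library size by edgeR's TMM method, and calls are genes with a Benjamini-Hochberg adjusted p under 0.05 in edgeR's quasi-likelihood test. All 10 pluripotency markers were detected at 1 CPM or more in every library, with a summed level of 5400 to 11663 CPM. Markers of mesoderm and stromal cells summed to 694 CPM in replicate 1 of WT day 0 and 1091 CPM in replicate 1 of WT day 1, against 15.4 to 174 CPM in the other libraries. In bulk RNA, fewer cells of a type and less RNA per cell cannot be told apart.

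Over 7 days of 2i, the averages of both genotypes changed for 10 of the 34 genes, 8 upward and 2 downward. The glucose transporter Slc2a3, the hexokinase Hk1, glucose phosphate isomerase (Gpi1), aldolase C (Aldoc), lactate dehydrogenase B (Ldhb), the regulators Pfkfb2 and Pfkfb4 and phosphoglucomutase (Pgm1) rose, and enolase 3 (Eno3) and pyruvate dehydrogenase kinase 1 (Pdk1) fell. The share called, 29.4% of the list, stood beside 27.3% of all genes tested, with 13.7% of all genes higher and 13.7% lower. The median change of the 34 genes was 0.143 on the log2 scale and that of all genes tested was 0.011. The share called in the list was thus near that of all genes. Over the same days the summed pluripotency markers went from 5400 to 8323 CPM at day 0 to 10312 to 11432 CPM at day 7 and the summed neural markers from 153 to 213 CPM to 75.7 to 162 CPM, and their part in these changes was not tested.

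**Figure D1:**
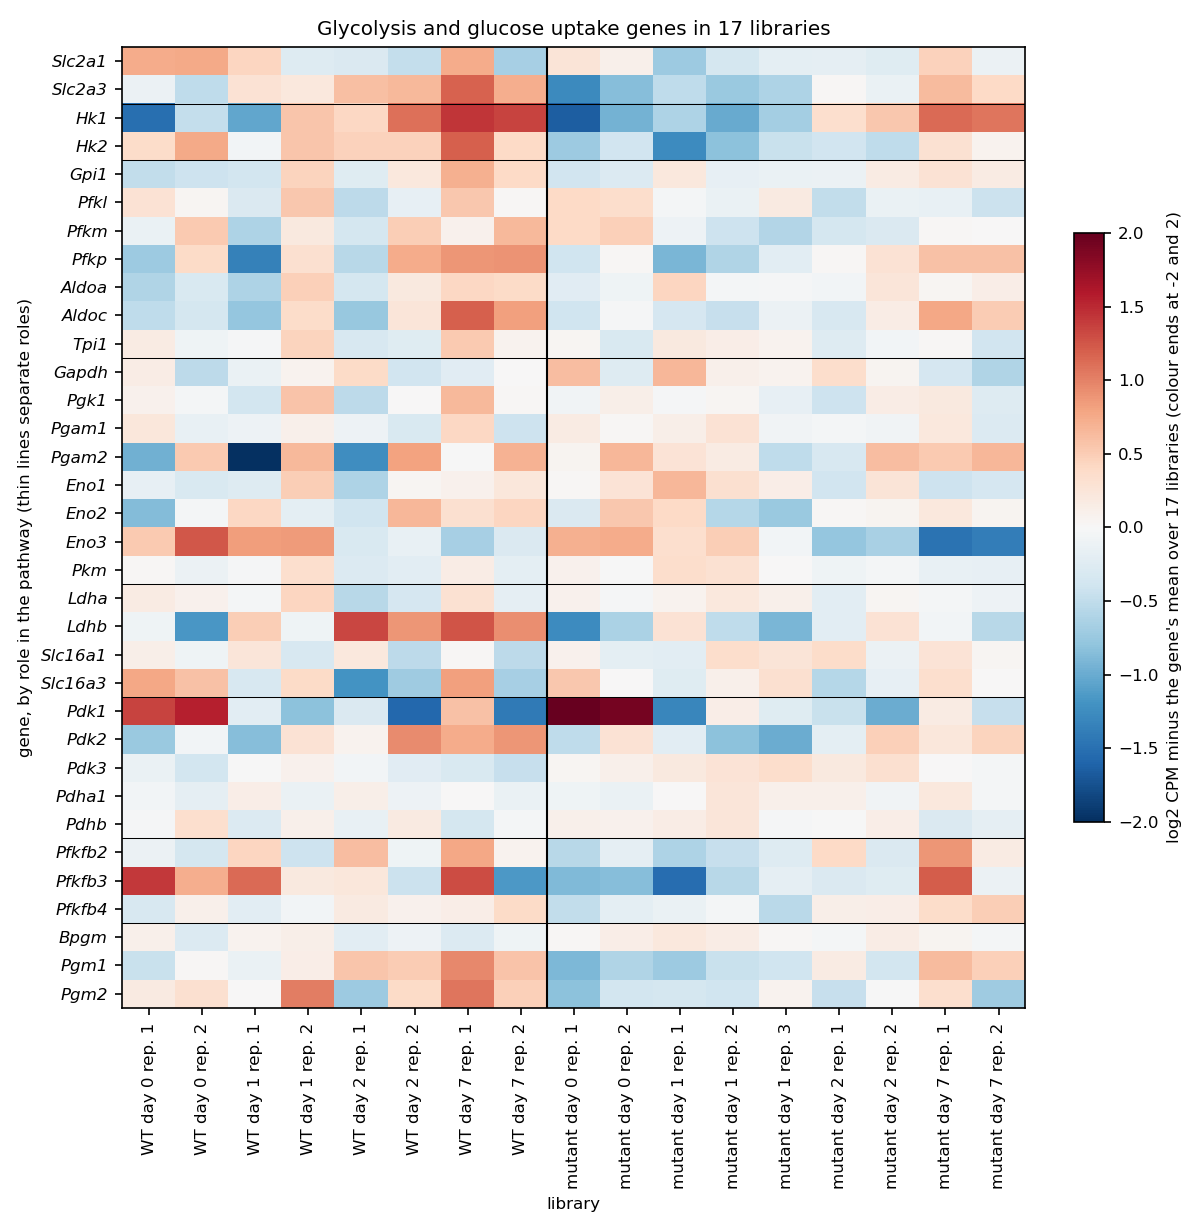
Levels of the 34 genes (rows, grouped by role) in the 17 libraries (columns), as log2 CPM minus the mean of that gene over all libraries; red is above and blue below the mean. Pdk1 is red in the 4 day 0 libraries, and Hk1 is red in the 4 day 7 libraries.

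Glucose enters through facilitative transporters of the SLC2 family, of which Slc2a1 (GLUT1) and Slc2a3 (GLUT3, a high-affinity transporter) are listed. Slc2a3 (GRCm38 6:122727809-122801640, minus strand) stood at 1618 and 1226 CPM in WT and 726 and 975 CPM in the mutant at day 0. At day 1 it had 2133 and 2032 CPM in WT and 1235, 1049 and 1143 CPM in the mutant. At day 2 it had 2651 and 2753 CPM in WT and 1775 and 1600 CPM in the mutant, and at day 7 3982 and 2904 CPM in WT and 2725 and 2306 CPM in the mutant. Each mutant group lay below the WT group of the same day, and within each genotype the libraries of every later day lay above those of day 0. The rise by day 7 was 2.42-fold in WT (log2 change 1.28 ± 0.20 SE, adjusted p = 0.00262) and 2.96-fold in the mutant (log2 change 1.56 ± 0.21 SE, adjusted p = 0.000521).

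Slc2a1 passed no comparison of the edgeR fit without a block or offsets. It had 888 and 894 CPM in WT and 634 and 569 CPM in the mutant at day 0. Levels at day 2 were lower, 431 and 381 CPM in WT and 469 and 445 CPM in the mutant, without overlap (average log2 change -0.76 ± 0.26 SE, adjusted p = 0.0795). That average was called with the replicate block over all libraries (adjusted p = 0.047), with the block over WT libraries (0.0154) and by DESeq2 (0.0337), and the day 1 average with the block over WT libraries (0.0441). At day 7 the replicates spread widely, with 884 and 334 CPM in WT and 729 and 488 CPM in the mutant. Levels per length (TPM) are counts divided by the joint length of all annotated exons of a gene, scaled to a fixed sum per library. That length can differ from that of the transcripts present, so shares between isozymes depend on it. By TPM, Slc2a3 made up 35.7% to 46.8% of the pair's summed level at day 0 and 64.4% to 80.8% at day 7. The day 7 shares lay above those of day 0 in every library.

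Hexokinases phosphorylate glucose and so keep it in the cell. Hk1 (GRCm38 10:62268855-62379908, minus strand) showed the largest rise of the list at day 7. It had 34.9 and 71.3 CPM in WT and 31.7 and 51.5 CPM in the mutant at day 0. At day 1 it had 48.4 and 145 CPM in WT and 64.4, 49.4 and 62.2 CPM in the mutant. By day 2 it had reached 133 and 214 CPM in WT and 126 and 144 CPM in the mutant, and by day 7 266 and 252 CPM in WT and 217 and 209 CPM in the mutant. Every day 2 and day 7 library lay above every day 0 library. The average change was 5.00-fold at day 7 (log2 2.32 ± 0.32 SE, adjusted p = 0.000241) and 3.25-fold at day 2 (log2 1.70 ± 0.32 SE, adjusted p = 0.00461). The share of Hk1 in the summed TPM of both hexokinases went from 7.58% to 16.8% at day 0 to between 26.0% and 37.5% at day 7.

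Hk2 (GRCm38 6:82725025-82774454, minus strand) encodes the more inducible hexokinase and was the hexokinase with the larger TPM in all 17 libraries. Its libraries did not overlap between genotypes within any day, though no single-day difference passed the test in the edgeR fit without a block. In the mutant both day 7 libraries also lay above all earlier ones. WT libraries had 297 and 392 CPM at day 0, 222 and 338 at day 1, 319 and 320.5 at day 2, and 531 and 306 at day 7. Mutant libraries had 139 and 178 CPM at day 0, 96.7, 131 and 170 at day 1, 178 and 163 at day 2, and 287 and 244 at day 7. At every day the mutant libraries lay below the WT libraries of that day. Averaged over the 4 days the level was 1.92-fold lower in the mutant (log2 change -0.94 ± 0.15 SE, adjusted p = 0.00214). The 250 bases upstream of its RefSeq start site (GRCm38.p6 6:82774455-82774704, minus strand, read 5′ to 3′) are shown because they hold the core motif ACGTG bound by hypoxia-inducible factors, in capitals as its reverse complement CACGT:
Hk2: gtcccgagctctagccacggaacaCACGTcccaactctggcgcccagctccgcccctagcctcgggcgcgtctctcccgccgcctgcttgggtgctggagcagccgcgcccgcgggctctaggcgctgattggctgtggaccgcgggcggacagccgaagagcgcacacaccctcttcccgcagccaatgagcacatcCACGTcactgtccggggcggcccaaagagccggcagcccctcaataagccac

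The upper part of glycolysis turns glucose 6-phosphate into triose phosphates through the isomerase Gpi1, the phosphofructokinases Pfkl, Pfkm and Pfkp, the aldolases Aldoa and Aldoc, and triose phosphate isomerase (Tpi1). Of these 7 genes, Gpi1 and Aldoc rose by day 7. Gpi1 had 560 and 588 CPM in WT and 603 and 648 CPM in the mutant at day 0, and 1280 and 1040 CPM in WT and 960 and 876 CPM in the mutant at day 7. The groups did not overlap (average 1.72-fold, log2 0.78 ± 0.18 SE, adjusted p = 0.00538). Aldoc had 24.1, 26.9, 26.0 and 33.8 CPM in the 4 day 0 libraries and 78.4, 60.1, 58.6 and 48.6 CPM in the 4 day 7 libraries, WT replicates given before mutant replicates. Its change was 2.21-fold (log2 1.14 ± 0.26 SE, adjusted p = 0.00643), again without overlap. Aldoc made up at most 1.73% of the aldolase TPM in any library, so the aldolase transcripts were almost entirely from Aldoa.

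The other upper enzymes did not pass the test at any day in the edgeR fit without a block or offsets. Aldoa ranged from 1965 to 2813 CPM at day 0 and from 3080 to 3970 CPM at day 7 without overlap (log2 0.55 ± 0.21 SE, adjusted p = 0.0722, or 0.049 with the replicate block over all libraries, 0.0153 with the block over WT libraries and 0.0156 with span offsets). Pfkp, the platelet-type phosphofructokinase, ranged from 197 to 426 CPM at day 0 and 492 to 608 CPM at day 7 (log2 0.86 ± 0.36 SE, adjusted p = 0.0941, or 0.0182 and 0.00396 with these 2 blocks). By TPM, the liver-type Pfkl was the largest of the 3 phosphofructokinases in all 17 libraries, with 47.5% to 72.2% of their sum. That order depends on the exon lengths used, 6675 bases for Pfkl and 13401 for Pfkp. By CPM, Pfkp was above Pfkl in some libraries, such as those of the mutant at day 7 (492 and 492 against 423 and 347 CPM). Tpi1 ranged from 634 to 1184 CPM over all 17 libraries, and Pfkm from 43.4 to 104 CPM. With the block over WT libraries, the average of both genotypes was called lower for Pfkm at days 1 and 2 (adjusted p of 0.00353 and 0.0169) and for Pfkl at day 2 (0.0314). Pfkl at day 2 was also called by DESeq2 (0.0213) and with span offsets (0.0417).

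The lower part of the pathway yields ATP and pyruvate through Gapdh, phosphoglycerate kinase (Pgk1), the mutases Pgam1 and Pgam2, the enolases Eno1, Eno2 and Eno3, and pyruvate kinase (Pkm). Among these 8 genes, Eno3 (GRCm38 11:70657202-70662513, plus strand), the enolase known from muscle, was the only one called. It had 19.2 and 31.5 CPM in WT and 21.8 and 22.3 CPM in the mutant at day 0. At day 2 it had 10.8 and 12.1 CPM in WT and 7.77 and 8.53 CPM in the mutant, and at day 7 8.41 and 11.0 CPM in WT and 4.79 and 5.12 CPM in the mutant. The fall by day 7 was 3.41-fold (log2 -1.77 ± 0.19 SE, adjusted p = 3.84e-05) and no library of day 2 or day 7 reached the lowest day 0 library. Eno3 was also 1.47-fold lower in the mutant over the 4 days (log2 -0.56 ± 0.13 SE, adjusted p = 0.0137). It supplied 6.35% to 12.6% of the enolase TPM at day 0 and 2.30% to 3.37% at day 7, the remainder being almost all Eno1.

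The 7 other lower genes passed no test. Pkm ranged from 4768 to 7361 CPM, Pgk1 from 149 to 336 CPM and Pgam1 from 189 to 335 CPM over all libraries. Pgam2 and Eno2 were low, at 0.539 to 5.71 CPM and 4.05 to 11.7 CPM. Gapdh stood at 46.5 to 113 CPM, and its median TPM of 56.2 was the 21st highest of the 34 genes, against 4097 for Pkm, 3685 for Aldoa and 1025 for Tpi1. Genes such as Gapdh, Pgk1, Pgam1, Eno1, Aldoa, Ldha, Tpi1 and Pkm have near-identical copies or pseudogenes elsewhere in the genome, and how reads matching several places were counted is not stated, so their levels are uncertain. For Eno1, at 536 to 1315 CPM, the table has a separate row for its copy Eno1b at 916 to 1696 CPM.

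Lactate dehydrogenase is a tetramer of A and B subunits, encoded by Ldha and Ldhb, of which A-rich forms favour the making of lactate and B-rich forms its use. Ldhb (GRCm38 6:142490249-142507957, minus strand) had 247 and 117 CPM in WT and 109 and 169 CPM in the mutant at day 0. At day 1 it had 369 and 246 CPM in WT and 318, 183 and 139 CPM in the mutant. At day 2 it had 663 and 485 CPM in WT and 225 and 320 CPM in the mutant, and at day 7 628 and 497 CPM in WT and 251 and 177 CPM in the mutant. The WT libraries of days 2 and 7 thus lay above every mutant library, while at days 0 and 1 the genotypes overlapped. The average of both genotypes rose 2.18-fold by day 7 (log2 1.13 ± 0.30 SE, adjusted p = 0.0141). Over the 4 days Ldhb was 1.80-fold lower in the mutant (log2 -0.85 ± 0.21 SE, adjusted p = 0.0188). Whether its day 7 response differed between genotypes did not pass its own test (log2 difference -1.01 ± 0.59 SE, adjusted p = 0.669). The time call was lost without replicate 1 of mutant day 0 (adjusted p = 0.0673) or replicate 1 of mutant day 7 (adjusted p = 0.057), and the genotype call without both stromal-marker libraries (log2 -0.61, adjusted p = 0.0667), replicate 1 of mutant day 0 (0.0571), replicate 1 of mutant day 2 (0.0525) or replicate 2 of mutant day 7 (0.0564).

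Ldha showed no such pattern, with 1478 to 2921 CPM over the 17 libraries and a genotype difference of 0.01 ± 0.09 SE on the log2 scale (adjusted p = 0.981). By TPM, Ldhb made up 9.76% and 17.7% of both subunits in WT and 9.13% and 14.3% in the mutant at day 0. At day 7 it made up 33.2% and 35.4% in WT against 20.1% and 15.7% in the mutant. The upstream bases of both genes are shown side by side because Ldhb was called and Ldha was not. A link between these bases and the levels was not tested. Capitals mark the E-box CACGTG, a site for MYC and related factors, and the hypoxia core ACGTG or its reverse complement CACGT.
Ldha: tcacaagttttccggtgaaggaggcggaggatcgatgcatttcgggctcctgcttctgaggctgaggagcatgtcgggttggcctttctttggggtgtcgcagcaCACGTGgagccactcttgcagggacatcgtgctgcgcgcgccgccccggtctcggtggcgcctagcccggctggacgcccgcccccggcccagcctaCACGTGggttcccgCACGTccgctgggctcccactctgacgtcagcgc
Ldhb: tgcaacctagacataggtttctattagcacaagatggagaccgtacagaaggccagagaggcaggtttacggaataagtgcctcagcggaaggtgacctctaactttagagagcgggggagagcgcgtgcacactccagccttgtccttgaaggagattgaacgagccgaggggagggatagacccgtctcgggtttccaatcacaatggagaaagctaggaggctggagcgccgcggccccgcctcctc
The Ldha stretch (GRCm38.p6 7:46845554-46845803, plus strand) holds 2 E-boxes, starting 145 and 48 bases before its start site, and 1 further hypoxia core. The window around another RefSeq start site of Ldha (7:46846832-46847131), not printed here, holds 0 E-boxes and 0 hypoxia cores. The Ldhb stretch (6:142507958-142508207, minus strand) holds neither motif.

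The carriers Slc16a1 (MCT1) and Slc16a3 (MCT4) export lactate with a proton. Slc16a3 had 286 and 251 CPM in WT and 243 and 170 CPM in the mutant at day 0, and 73.7 and 103 CPM in WT and 113 and 150 CPM in the mutant at day 2. The day 2 libraries lay below all day 0 libraries, a 2.19-fold fall (log2 -1.13 ± 0.28 SE, adjusted p = 0.0231). At day 7 it had 295 and 106 CPM in WT and 213 and 168 CPM in the mutant, overlapping day 0. The day 2 call was lost without replicate 1 of WT day 0 (adjusted p = 0.0572), replicate 1 of WT day 2 (0.0661), replicate 1 of mutant day 0 (0.109), or either replicate of mutant day 2 (0.0923 and 0.0563). Slc16a1 passed no test, at 155 to 288 CPM over all libraries.

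Pyruvate dehydrogenase kinases phosphorylate the dehydrogenase and close the entry of pyruvate into mitochondrial oxidation. Pdk1 (GRCm38 2:71873224-71903858, plus strand) fell within 1 day of 2i. It had 253 and 292 CPM in WT and 400 and 374 CPM in the mutant at day 0. At day 1 it had 85.8 and 56.1 CPM in WT and 39.9, 109 and 83.9 CPM in the mutant, at day 2 80.8 and 33.2 CPM in WT and 72.5 and 49.8 CPM in the mutant, and at day 7 149 and 37.0 CPM in WT and 111 and 72.0 CPM in the mutant. Every library with 2i lay below every library without it. The average falls were 4.37-fold at day 1 (log2 -2.13 ± 0.41 SE, adjusted p = 0.00991), 5.50-fold at day 2 (log2 -2.46 ± 0.44 SE, adjusted p = 0.00328) and 3.52-fold at day 7 (log2 -1.82 ± 0.43 SE, adjusted p = 0.00706). Pdk1 was the only gene of the list called at day 1 in that average (2.94% of the list, against 4.86% of all genes). With the replicate block for WT libraries 4 genes of the list were called, among 1926 of all genes, against 747 of all genes without a block. The day 1 call of Pdk1 without a block was lost on leaving out replicate 2 of WT day 1 (log2 -1.99). The stretch upstream of its start site (GRCm38.p6 2:71872974-71873223, plus strand), shown as the promoter of the gene with the earliest fall, holds neither motif, so no base is in capitals:
Pdk1: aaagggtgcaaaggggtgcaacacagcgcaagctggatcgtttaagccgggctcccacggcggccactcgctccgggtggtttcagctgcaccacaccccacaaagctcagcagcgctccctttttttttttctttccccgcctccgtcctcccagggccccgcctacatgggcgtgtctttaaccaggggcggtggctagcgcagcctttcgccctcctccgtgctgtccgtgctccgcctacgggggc

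The other kinases did not follow Pdk1 in time. Pdk3, on the X chromosome, was at 28.5 to 39.6 CPM at day 0 and 26.8 to 37.1 CPM at day 7. It was the one gene of the list called higher in the mutant, at 36.0 to 46.7 CPM in 9 mutant libraries and 26.8 to 39.0 CPM in 8 WT libraries (1.25-fold, log2 0.33 ± 0.08 SE, adjusted p = 0.0191). That call was lost without replicate 2 of mutant day 0 (adjusted p = 0.0502), replicate 2 of mutant day 2 (0.053) or replicate 1 of mutant day 7 (0.0513). Pdk2 was low, at 3.81 to 14.6 CPM, and its day 7 average was called higher with a replicate block (adjusted p of 0.0332 over all libraries and 0.0187 over WT libraries). Pdk1 made up 69.0% to 75.8% of the summed kinase TPM at day 0 and 20.1% to 55.0% in libraries with 2i, where Pdk3 was the larger part in most. Of the dehydrogenase subunit genes, Pdha1 had 309 to 415 CPM and Pdhb 110 to 178 CPM over all libraries, and neither passed the test as planned. The day 7 average of Pdhb (log2 -0.34 ± 0.14 SE, adjusted p = 0.0827) was called lower with the replicate block over all libraries (0.033), with the block over WT libraries (0.0129), with span offsets (0.0117), by DESeq2 (0.0365) and without both stromal-marker libraries (0.0409).

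**Figure D2:**
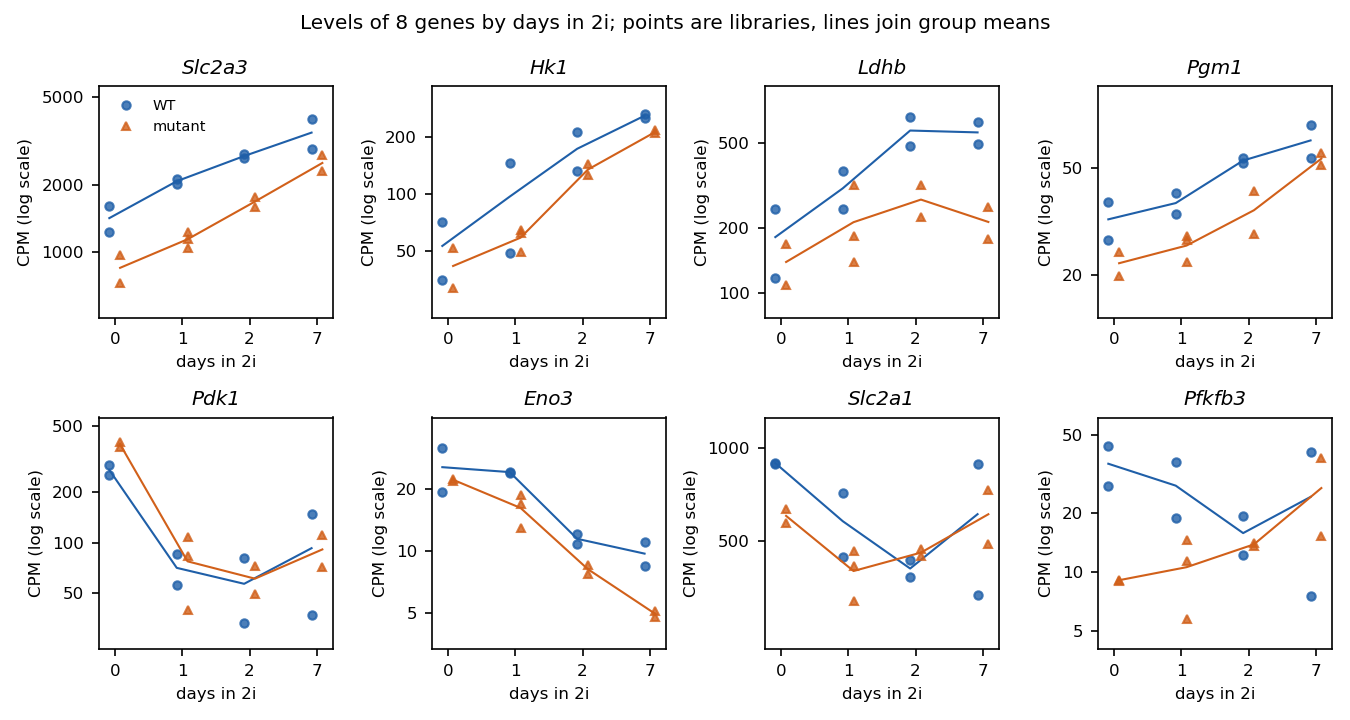
CPM (log scale) of 8 genes against days in 2i (0, 1, 2 and 7, evenly spaced); circles are WT and triangles mutant libraries, and lines join group means. Pdk1 drops between day 0 and day 1 in both genotypes, Slc2a3 and Hk1 are higher at each later day by group mean, and Ldhb stands higher in WT at days 2 and 7.

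The PFKFB enzymes set the level of fructose 2,6-bisphosphate, the main activator of phosphofructokinase. Pfkfb2 ranged from 10.7 to 14.5 CPM at day 0 and 16.6 to 29.1 CPM at day 7 (1.75-fold, log2 0.81 ± 0.27 SE, adjusted p = 0.0401), and Pfkfb4 from 4.17 to 6.29 CPM and 6.43 to 8.25 CPM (1.48-fold, log2 0.56 ± 0.19 SE, adjusted p = 0.0442). Neither overlapped between those days. The call for Pfkfb2 held in 16 of 24 alternative fits (adjusted p up to 0.163, without replicate 1 of mutant day 7) and the one for Pfkfb4 in 7 of 24 (adjusted p up to 0.141, without replicate 1 of WT day 0). Pfkfb3, the form with the highest ratio of kinase to phosphatase activity, had 44.1 and 27.6 CPM in WT and 9.03 and 9.16 CPM in the mutant at day 0. That difference, 3.94-fold, did not pass the test (log2 -1.98 ± 0.68 SE, adjusted p = 0.228), but was called with the block over WT libraries (0.0433). The average of the 4 days was called lower in the mutant by DESeq2 (0.0406) and with that block (0.0352). With the same block Pfkfb3 was called higher at day 7 than at day 0 in the mutant (0.0306).

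Phosphoglucomutase links glycolysis to glycogen. Pgm1 rose from 26.9 and 37.4 CPM in WT and 19.8 and 24.4 CPM in the mutant at day 0 to 71.9 and 54.5 CPM in WT and 56.9 and 51.2 CPM in the mutant at day 7, without overlap (2.19-fold, log2 1.13 ± 0.17 SE, adjusted p = 0.000407). It was 1.39-fold lower in the mutant over the 4 days (log2 -0.48 ± 0.12 SE, adjusted p = 0.0195), a call lost without replicate 1 of mutant day 0 (0.063), replicate 2 of mutant day 2 (0.0536) or replicate 2 of mutant day 7 (0.0564). Pgm2 showed a difference in the same direction that missed the threshold (log2 -0.67 ± 0.21 SE, adjusted p = 0.0551). That difference was called by DESeq2 (adjusted p = 0.0155) and with the block over WT libraries (0.0246). The symbols Pgm1 and Pgm2 were exchanged between annotation releases, and the annotation used for counting is not stated, so which gene each row counts is uncertain. Bpgm, which makes 2,3-bisphosphoglycerate, was at 17.5 to 24.5 CPM and passed no test.

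**Figure D3:**
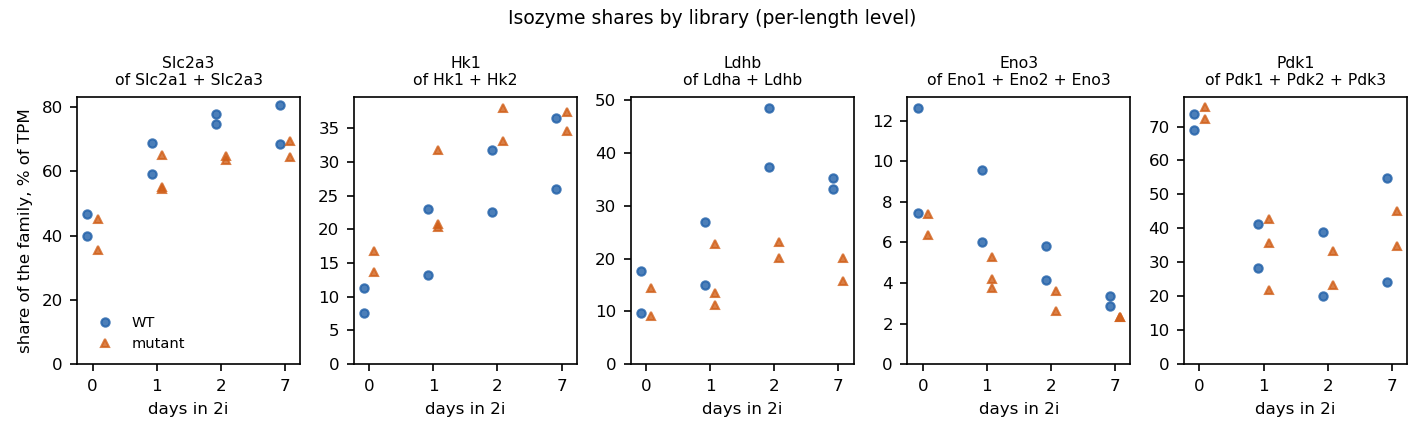
Share of one isozyme in the summed TPM of its family (%, vertical axes start at 0) against days in 2i; circles are WT and triangles mutant libraries. The share of Slc2a3 is at most 46.8% at day 0 and at least 64.4% at day 7, and that of Pdk1 is at least 69.0% at day 0 and at most 55.0% with 2i.

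Counts by genotype and day place these genes in the response to 2i. In WT, 0 of 34 genes were called at day 1 (0.202% of all genes), 2 at day 2 (Slc2a3 higher, Eno3 lower; 2.16% of all genes) and 7 at day 7 (Slc2a3, Hk1, Gpi1, Aldoc, Ldhb and Pgm1 higher, Eno3 lower; 12.7% of all genes). In the mutant, 0 were called at day 1 (1.41%), 3 at day 2 (Slc2a3 higher, Eno3 and Pdk1 lower; 2.92%) and 5 at day 7 (Slc2a3, Hk1 and Pgm1 higher, Eno3 and Pdk1 lower; 14.2%). At day 1, 3 members (8.82%) had an unadjusted p under 0.05 in each genotype, against 8.42% of all genes in WT and 13.2% in the mutant. DESeq2 called 1 in each, Pdk1, which was lower, among 328 of all genes in WT and 804 in the mutant. With the replicate block for WT libraries, 7 genes were called at day 2 and 11 at day 7 in WT, where that fit called 1489 and 4007 of all genes, and the additional ones included Hk1, Slc16a3, Pdk1, Slc2a1 and Ldhb at day 2 (adjusted p of 0.00455, 0.0235, 0.00746, 0.0249 and 0.00858). The same fit called 2, 5 and 8 genes of the list in the mutant at days 1, 2 and 7, among 821, 1331 and 3857 of all genes. Leaving out 1 library at a time gave 0 to 5 WT calls at day 2 and 3 to 8 at day 7. In the mutant it gave 0 to 4 at day 2 and 2 to 5 at day 7, with the fewest at day 7 without replicate 1 of mutant day 0.

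Averaged over genotypes, day 2 had 7 calls (20.6% of the list against 10.7% of all genes), 4 higher (Slc2a3, Hk1, Ldhb and Pgm1; 5.56% of all genes) and 3 lower (Eno3, Slc16a3 and Pdk1; 5.13%). The median of the list was 0.011 and of all genes 0.009 on the log2 scale. Leaving out 1 library gave 4 to 8 calls, the fewest without replicate 1 of mutant day 0. Among the calls lost were Ldhb without that library (adjusted p = 0.0791) or replicate 2 of mutant day 2 (0.0605), and Pgm1 without that library (0.0997), replicate 1 of WT day 0 (0.0766) or replicate 1 of mutant day 2 (0.0926).

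**Figure D4:**
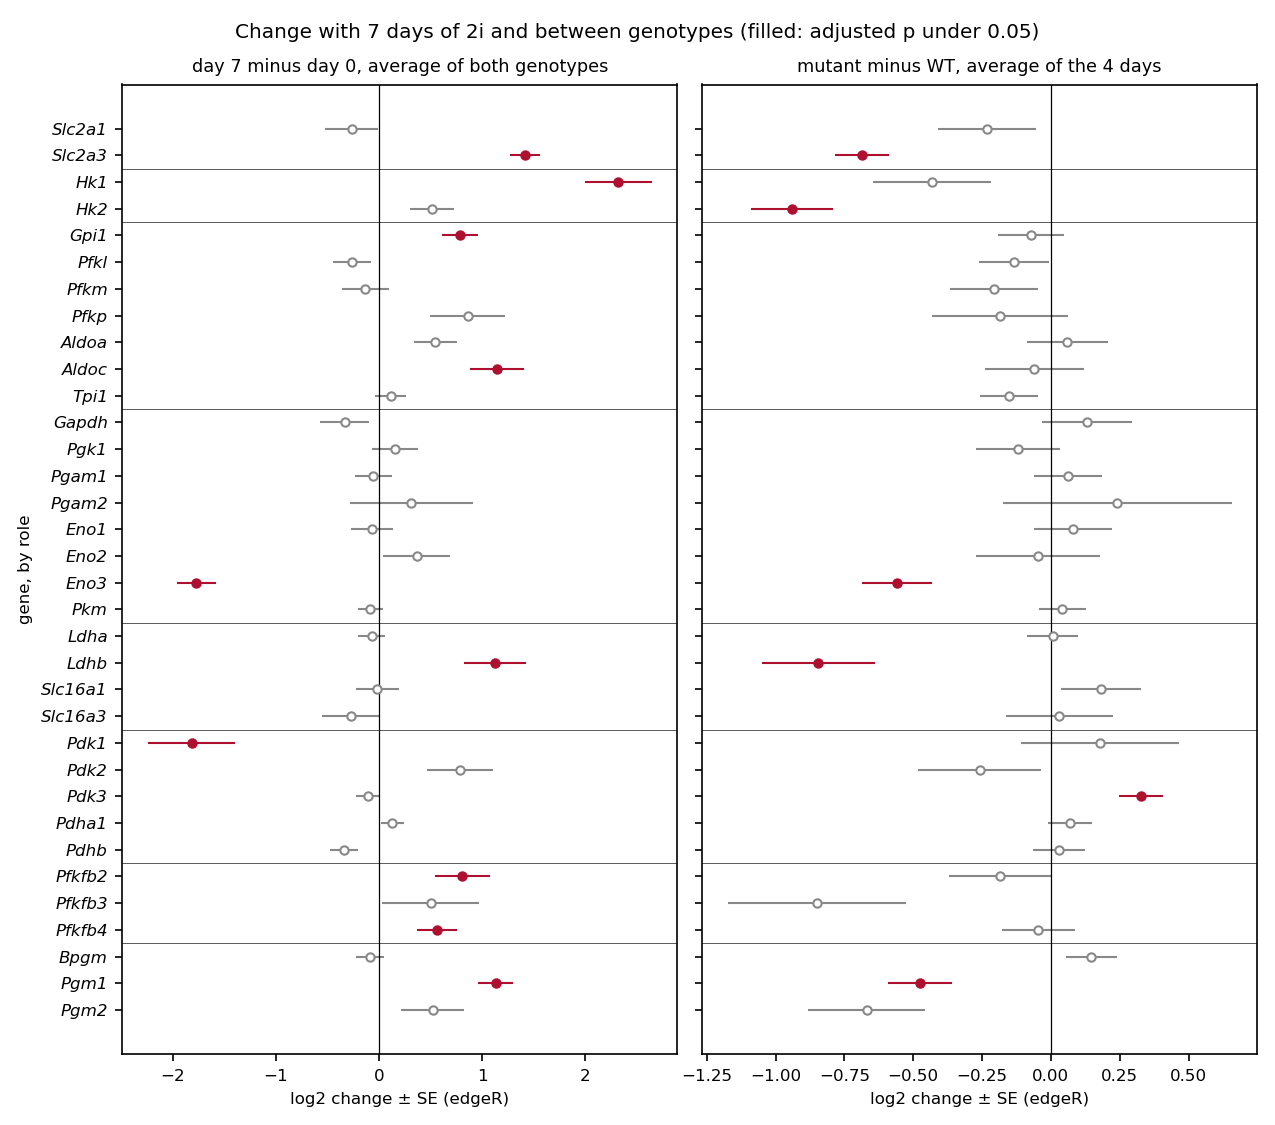
Log2 change ± SE of each gene, by role, for day 7 minus day 0 (left, average of both genotypes) and mutant minus WT (right, average of the 4 days); filled points have an adjusted p under 0.05. The left panel has 10 filled points, 8 of them positive, and the right has 6, of which 1 is positive.

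The comparison of genotypes asks whether slow elongation goes with another level of these transcripts. On average over the 4 days, 6 of 34 genes were called (17.6% of the list, against 12.8% of all genes), 1 higher in the mutant (Pdk3; 5.35% of all genes) and 5 lower (Slc2a3, Hk2, Eno3, Ldhb and Pgm1; 7.49% of all genes). Slc2a3 was 1.61-fold lower (log2 -0.69 ± 0.10 SE, adjusted p = 0.00121). The median of the list was -0.066 and of all genes -0.03 on the log2 scale. At single days no gene of the list was called: day 0 had 0.28% of all genes called, day 1 0.417%, day 2 0.0716% and day 7 0.0976%. At an unadjusted p under 0.05 there were 4, 5, 5 and 7 members at these days (11.8%, 14.7%, 14.7% and 20.6% of the list, against 13.2%, 14.4%, 6.04% and 9.53% of all genes). DESeq2, which called 701, 769, 141 and 316 of all genes, called 2 members at day 0 (Hk2 and Slc2a3), 2 at day 1 (the same 2 genes), 0 at day 2 and 1 at day 7 (Eno3), all lower in the mutant. With the replicate block for WT libraries, 2 were called at day 0 (Slc2a3, adjusted p = 0.043, and Pfkfb3, 0.0433), 2 at day 1 (Slc2a3, 0.0122, and Hk2, 0.037) and 0 at days 2 and 7, among 576, 695, 42 and 191 of all genes, and Pfkfb3 (0.0352) and Pgm2 (0.0246) were added to the calls of the 4-day average. At day 7, 26 of 34 genes had a negative difference, against 52.8% of all genes, with a list median of -0.262 (-0.407 to -0.162 on leaving out 1 library) against -0.026 for all genes.

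Markers of other cell types were compared between genotypes as ranges pooled over days, without a test. Of 12 mesoderm and stromal markers, 6 to 11 reached 1 CPM in a WT library (summed 51.6 to 1091 CPM) and 5 to 8 in a mutant library (summed 15.4 to 64.2 CPM, with Postn at 0 in all 9). Of 11 primitive endoderm markers, 5 to 10 reached 1 CPM in WT (191 to 817 CPM) and 4 to 6 in the mutant (99.7 to 288 CPM, with Gata6 and Sox17 under 1 CPM in all 9). Within WT, replicate 2 had the higher sum at each day, with 756, 652, 761 and 817 CPM at days 0, 1, 2 and 7. Replicate 1 had 191, 272, 251 and 351 CPM at these days. Of 10 trophoblast markers, 7 to 9 reached 1 CPM in WT (85.0 to 1317 CPM) and 6 to 8 in the mutant (36.4 to 104 CPM). The stromal-marker libraries also had the highest trophoblast sums, 645 and 1317 CPM, against at most 288 CPM in the others. Neural markers summed to 75.7 to 402 CPM in WT and 119 to 444 CPM in the mutant, and markers of 2-cell-like cells to at most 10.4 and 18.1 CPM. Their part in the genotype differences was not tested beyond leaving out both stromal-marker libraries, after which Slc2a3 (log2 -0.62, adjusted p = 0.00425), Hk2 (-1.05, 0.00211), Eno3 (-0.64, 0.00816), Pdk3 (0.35, 0.0298) and Pgm1 (-0.56, 0.0142) were still called. Without these libraries Hk1 (-0.68, 0.0105, against -0.43 and 0.213 with them) and Pgm2 (-0.79, 0.0356) were called lower in the mutant as well. That removal left WT days 0 and 1 with replicate 2 alone, at primitive endoderm sums of 756 and 652 CPM. The mutant had 99.7 to 142 CPM at day 0 and 152 to 200 CPM at day 1 for these markers. Within the mutant, the stromal sum was 15.4 and 17.02 CPM at day 0 and 57.0 and 64.2 CPM at day 7. The WT stromal sums at day 7 were 51.6 and 63.5 CPM, so the genotypes overlapped there. Trophoblast sums overlapped at day 7 too (99.1 to 185 CPM in WT, 100 to 104 CPM in the mutant). At days 0, 1 and 2, every mutant library had lower stromal and trophoblast sums than the WT libraries of that day.

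Whether 2i acted differently in the mutant was tested by the difference of the responses. No gene of the list and none of the 15365 genes tested was called by edgeR at day 1, 2 or 7 (0.0%, 0.0% and 0.0% of all genes) in the fit without a block. With the replicate block for WT libraries, 14 of all genes were called at day 7, none of them in the list. At an unadjusted p under 0.05 there were 0, 0 and 2 members, and 118, 366 and 1178 of all genes. The 2 at day 7 were Eno1 (log2 difference -0.93 ± 0.41 SE) and Pfkfb3 (2.13 ± 0.94 SE), both with an adjusted p of 0.647. DESeq2 called 0, 0 and 0 members and 0, 0 and 73 of all genes.

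**Figure D5:**
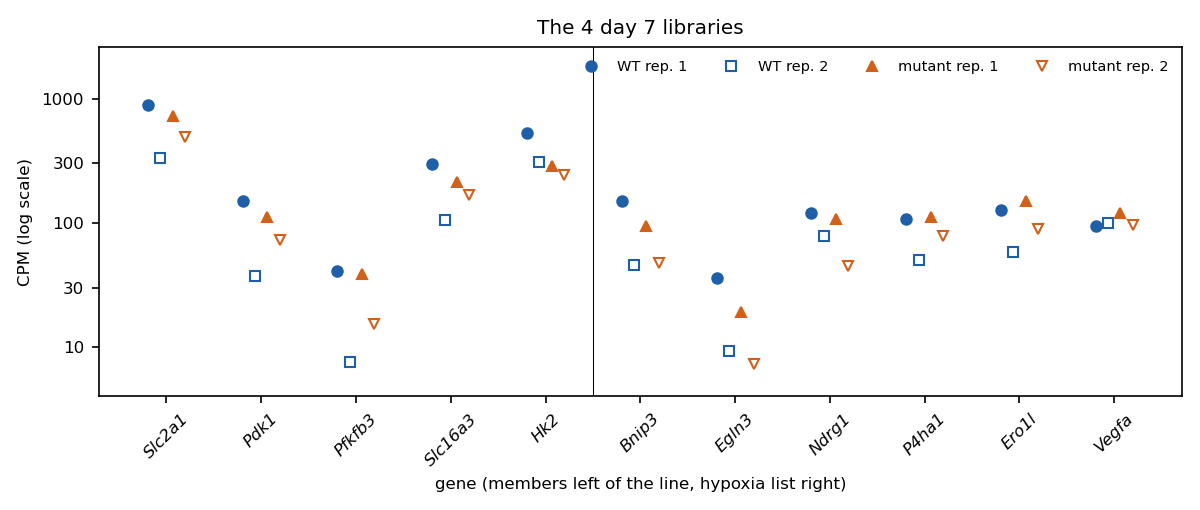
CPM (log scale) in the 4 day 7 libraries of 5 genes of the list (left of the line) and 6 genes of the hypoxia list (right); filled symbols are replicate 1 and open symbols replicate 2. Replicate 1 is higher than replicate 2 in both genotypes for each gene shown, apart from Vegfa in WT.

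At day 7, replicate 1 had the higher value for 23 of the 34 genes in WT and for 27 in the mutant, 22 of them shared. In WT, replicate 1 stood above replicate 2 for Slc2a1 (884 and 334 CPM), Pdk1 (149 and 37.0 CPM), Pfkfb3 (41.0 and 7.53 CPM), Slc16a3 (295 and 106 CPM) and Hk2 (531 and 306 CPM). In the mutant, replicate 1 also had the higher value for Slc2a1 (729 and 488 CPM), Pdk1 (111 and 72.0 CPM) and Pfkfb3 (38.5 and 15.4 CPM). Of the 24 genes of the hypoxia list, replicate 1 was higher for 17 in WT and 18 in the mutant, 16 of them shared, and lower in both genotypes for 5, such as Ddit4 (84.4 and 147 CPM in WT, 112 and 122 CPM in the mutant). Among those higher in both were Bnip3, which acts in mitochondrial turnover (149 and 45.3 CPM in WT, 94.3 and 47.8 CPM in the mutant), and the oxygen-sensing hydroxylase Egln3 (35.6 and 9.29 CPM in WT, 19.2 and 7.34 CPM in the mutant). These genes were picked for this plot after their values were seen, and the cause was not tested. The same counts were not made over all genes, so they cannot be called particular to these lists. Over all genes tested, deviations from the group means at day 7 correlated between same-numbered WT and mutant libraries (r = 0.344).

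Other genes around the pathway were counted by list. Of 24 genes of the hypoxia-inducible factor pathway and its targets, 7 were higher and 1 was lower at day 7, where 13.7% of all genes were called in each direction. The lower one was Epas1, which encodes HIF-2α (log2 -1.46 ± 0.44 SE, adjusted p = 0.0261). The adenylate kinase Ak4 had 83.3 and 148 CPM in WT and 49.0 and 40.6 CPM in the mutant at day 0 and 443 and 286 CPM in WT and 255 and 224 CPM in the mutant at day 7 (log2 2.04 ± 0.25 SE, adjusted p = 9.58e-05). Of 11 glycogen genes, 5 were higher and 1 was lower at day 7, with the phosphorylase Pygl at 0.602 to 2.23 CPM at day 0 and 5.49 to 13.5 CPM at day 7 (log2 2.61 ± 0.44 SE, adjusted p = 0.000888) and glycogen synthase Gys1 at a log2 change of 0.84 ± 0.23 SE (adjusted p = 0.0163). Of 9 genes of the MYC family and the glucose-sensing factors, 1 was higher and 3 were lower. Myc had 75.5 and 156 CPM in WT and 119 and 87.7 CPM in the mutant at day 0 and 10.7 to 17.3 CPM at day 7 (log2 -3.04 ± 0.46 SE, adjusted p = 0.000447), Mycn changed by -1.49 ± 0.39 SE (adjusted p = 0.012), and Mycl by 1.44 ± 0.27 SE (adjusted p = 0.00166).

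For the remaining lists at day 7, the share of all genes called was again 13.7% in each direction. Of 21 tested genes for other isozymes and glucose transporters, 4 were higher and 1 was lower. For pyruvate entry 1 was higher and 1 was lower of 10, and for the pentose phosphate pathway 1 was higher and 1 was lower of 11. The pyruvate dehydrogenase phosphatases, which oppose the kinases, moved in opposite directions: Pdp1 changed by -1.30 ± 0.25 SE (adjusted p = 0.00231) and Pdp2 by 1.29 ± 0.21 SE (adjusted p = 0.000814). Tigar, which lowers fructose 2,6-bisphosphate, rose by 0.94 ± 0.14 SE (adjusted p = 0.000332). None of 6 tested genes of gluconeogenesis and none of 5 of serine synthesis was called at day 7. Between genotypes, 5.35% of all genes were called higher and 7.49% lower in the mutant. Other isozymes and transporters had 2 higher and 4 lower of 21 tested. Gluconeogenesis had 1 and 0 of 6, pyruvate entry 1 and 0 of 10, and the pentose phosphate pathway 1 and 1 of 11. Glycogen had 0 and 1 of 11, serine synthesis 0 and 0 of 5, the hypoxia list 0 and 2 of 24, and the MYC list 0 and 3 of 9. In the last, Mycl and the glucose-responsive pair Txnip and Arrdc4 were lower, by -0.67 ± 0.18, -0.50 ± 0.15 and -0.46 ± 0.13 SE on the log2 scale (adjusted p of 0.0304, 0.0424 and 0.0369).

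Promoter letters were searched in RefSeq windows of GRCm38.p6 from 250 bases before to 50 bases after each start site. Of the 34 genes, 33 had at least 1 window and together they had 49; Slc2a3 had none. The E-box CACGTG was in 6 windows (12.2%), against 7.15% of all 32851 windows. The core ACGTG, on either strand and outside an E-box, was in 21 windows (42.9%) against 13.6% of all windows, and 19 of the 33 genes had it in at least 1 window. Genes with and without the core were found among those that changed: Hk1, Hk2, Aldoc, Pgm1, Slc16a3, Pfkfb2 and Pdk3 had it in at least 1 window, and Ldhb, Eno3, Gpi1, Pdk1 and Pfkfb4 did not. A match of letters is a description of the window, and binding was not measured. GC content was not matched between the windows of the list and all windows. Some windows of the same gene overlap, such as those of Aldoa, so they are not independent.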

How the data were processed

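Total RNA from 17 libraries was measured as one table of raw read counts per gene symbol, deposited by the authors. Per the submitters' processing notes, STAR, deepTools and the build mm10 were used; the counting tool, annotation, strand setting and treatment of reads that match several places are not given in the sources used here. Of values from 1 to 9, 91.069% were even, and of values of at least 1000, 64.561%, so mates of a read pair may have been counted separately and counts overstate the number of fragments.

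Groups came from sample titles. Counts were fitted as deposited with edgeR 4.0.16 (R 4.3.3): TMM scaling, filterByExpr (15365 of 20621 genes kept, 2692 being at 0 in every library), 8 group coefficients, glmQLFit and glmQLFTest, two-sided, with Benjamini-Hochberg adjustment over all genes within each of 17 contrasts. Between-replicate variation (common BCV) was 0.3332, estimated on 9 residual degrees of freedom. Scripts were tested on simulated data. TPM, positions and lengths used GENCODE M21 on GRCm38 (97.52% of symbols matched), and promoter sequences are RefSeq's.

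Replicate numbers were checked for pairing by correlating deviations from group means. All 6 same-numbered pairs of WT libraries had r over 0.1 (0.236 to 0.744), against 1 of 9 mutant pairs and 10 of 20 between genotypes. The labels give no source for this pairing, so it is a hint from the data, and the replicate block was an alternative fit. At day 2 in WT, 4 members were called with the block over all libraries, among 443 of all genes. With the block over WT libraries 7 were called, among 1489 of all genes.

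Alternatives were DESeq2 1.42.0, its size factors in edgeR, no filter, a replicate block, offsets by gene span, leaving out both libraries high in stromal markers, and leaving out each library. All 34 genes of the list are named. The members and the lists of related genes and markers (8 related, 6 marker lists) were chosen with earlier results of these data known.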

Additional observations from a re-analysis of the deposited data

How the results depend on the processing

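Of 984 refits of the 41 calls named for single genes (24 alternatives each), 876 stayed past the threshold, 108 did not, and 0 changed sign. Calls for Slc2a3, Hk2 and Eno3 between genotypes, for Slc2a3, Hk1, Eno3 and Pdk1 at day 2 and for these 4, Gpi1, Aldoc and Pgm1 at day 7 (averages of both genotypes) held in all 24. The library whose removal ended most calls was replicate 1 of mutant day 0 (15 of 41), followed by replicate 2 of mutant day 2 (10), replicate 1 of mutant day 2 (9) and replicate 1 of WT day 0 (9). The WT day 7 calls of Hk1, Gpi1, Aldoc and Pgm1 were lost without replicate 1 of WT day 0 (adjusted p of 0.0692, 0.109, 0.138 and 0.161), and those of Gpi1, Aldoc, Eno3, Ldhb and Pgm1 without replicate 1 of WT day 7 (0.109, 0.119, 0.0567, 0.111 and 0.127). The mutant day 7 calls of Hk1, Pdk1 and Pgm1 were lost without replicate 1 of mutant day 0 (0.0664, 0.166 and 0.0607). A removed library leaves its group with 1 (2 for mutant day 1), and a lone library is then assumed to vary like the other groups.

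Counts of called members moved as follows, and the cause was not tested. Calls among all genes moved as well. In WT at day 2 the edgeR fit without a block called 332 of all genes and DESeq2 1229. The block over all libraries called 443 there and the block over WT libraries 1489. In the day 1 average these totals were 747 without a block, 1641 with DESeq2, 1926 with the block over WT libraries and 935 with span offsets. DESeq2 called 2 between genotypes at day 0, 2 at day 1 and 1 at day 7, 1 in WT at day 1 and 7 at day 2, 1 in the mutant at day 1, and 2 in the day 1 average. The replicate block over all libraries called 4 in WT at day 2. The block over WT libraries called 2 between genotypes at day 0 and 2 at day 1; 1, 7 and 11 in WT and 2, 5 and 8 in the mutant at days 1, 2 and 7; and 4 in the day 1 average. Without the filter, with span offsets, or without the stromal-marker libraries, 1 was called in the mutant at day 1, and span offsets called 2 in the day 1 average. Leaving out 1 library gave 4 to 8 calls for the genotype average; 0 to 5 (day 2) and 3 to 8 (day 7) in WT; 0 to 1 (day 1), 0 to 4 (day 2) and 2 to 5 (day 7) in the mutant; 0 to 4 (day 1), 4 to 8 (day 2) and 7 to 12 (day 7) in the averages; and 0 to 0 for the other comparisons.

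With 2 libraries in most groups, a gene between genotypes at a single day needs a large difference to be called, so the 0 calls there do not show equal levels.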
